A study of Arabidopsis thaliana with 3 samples.

Results

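A set of 10 loci that serve as markers of cold, drought and abscisic acid responses in Arabidopsis thaliana were followed in seedlings of 2 mutants. They were taken by locus identifier: COR15B (AT2G42530), COR15A (AT2G42540), KIN2 (AT5G15970), KIN1 (AT5G15960), COR47 (AT1G20440), RD29A (AT5G52310), RD29B (AT5G52300), RAB18 (AT5G66400), GOLS2 (AT1G56600) and NCED3 (AT3G14440). The set was chosen with earlier results of these data known. These 10 genes stand against 2666 genes that appear in at least 1 of the 2 deposited tables, and 8 of the 10 are among them. The reference annotation, TAIR10.1, holds 38094 genes, and the genes that the authors tested are not known. The groups were pwo1, crwn1 crwn2 and the wild type Col-0, all grown on MS plates under long days after 2 days of stratification and taken as entire seedlings aged 14 days. No treatment by cold, drought or hormone is named in the labels, and they give neither the alleles of the mutants nor their number of backcrosses. PWO1 encodes a PWWP-domain protein that associates with Polycomb repressive complexes, and CRWN1 and CRWN2 encode coiled-coil proteins of the nuclear periphery. The series' design text states 3 biological replicates per genotype, but the tables hold no value per library, so neither levels nor depth nor replicate spread could be given. Each table gives, for a subset of genes with small p-values, a log2 fold change of the mutant over Col-0 and a p-value by edgeR and by Cuffdiff. A gene is called listed where the table includes it, and a gene that is not listed is not thereby shown to be unchanged. In whole seedlings, fewer cells of a type and less RNA per cell cannot be told apart.

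Low temperature induces the CBF transcription factors, which bind the CRT/DRE element, whose core is CCGAC, in front of COR15A, COR15B, the KIN genes, COR47 and RD29A. Drought raises abscisic acid, made through the cleavage of carotenoids by NCED3, and the hormone acts through PYR/PYL receptors, type 2C phosphatases and SnRK2 kinases on ABF transcription factors. These bind the ABRE, whose core is ACGTG, in front of genes such as RD29B and RAB18. Many of the encoded proteins are hydrophilic late embryogenesis abundant (LEA) proteins or dehydrins, which protect membranes and proteins when cells lose water.

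Upstream stretches of 4 listed members are given as examples of the motif cores before them. They are the neighbours RD29A and RD29B, which were listed for different mutants, COR15A, lower in crwn1 crwn2, and GOLS2, lower in both mutants. They come from the RefSeq copy of build TAIR10.1 and end at the base before the annotated transcript start, 5′ to 3′ on the strand of the gene. Capitals mark the ABRE core ACGTG and the CRT/DRE core CCGAC on either strand, so that CACGT and GTCGG are the same cores read from the other strand. RD29A lies at chr5:21240429-21240716 (plus strand, 288 bases), RD29B at chr5:21236721-21237020 (plus strand, 300 bases), COR15A at chr2:17712331-17712430 (minus strand, 100 bases) and GOLS2 at chr1:21207237-21207536 (plus strand, 300 bases).
RD29A: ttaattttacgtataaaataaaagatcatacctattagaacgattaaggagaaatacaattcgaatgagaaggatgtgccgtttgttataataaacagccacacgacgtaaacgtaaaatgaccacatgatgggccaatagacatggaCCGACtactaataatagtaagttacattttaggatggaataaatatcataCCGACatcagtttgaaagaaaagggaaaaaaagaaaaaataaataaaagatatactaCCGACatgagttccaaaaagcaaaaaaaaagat
RD29B: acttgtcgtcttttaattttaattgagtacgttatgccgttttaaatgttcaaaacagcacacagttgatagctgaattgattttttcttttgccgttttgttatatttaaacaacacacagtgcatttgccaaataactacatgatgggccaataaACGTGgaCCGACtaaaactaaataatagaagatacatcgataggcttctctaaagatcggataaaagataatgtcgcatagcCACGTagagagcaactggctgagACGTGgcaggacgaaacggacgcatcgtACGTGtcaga
COR15A: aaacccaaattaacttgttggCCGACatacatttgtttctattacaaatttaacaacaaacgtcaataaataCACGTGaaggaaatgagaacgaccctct
GOLS2: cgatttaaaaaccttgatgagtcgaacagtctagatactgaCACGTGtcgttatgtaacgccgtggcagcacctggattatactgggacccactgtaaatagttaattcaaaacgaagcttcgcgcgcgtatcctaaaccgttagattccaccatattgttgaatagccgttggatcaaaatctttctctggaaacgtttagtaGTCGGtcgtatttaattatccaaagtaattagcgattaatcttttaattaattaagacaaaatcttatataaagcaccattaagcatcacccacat
The RD29A stretch holds 3 CRT/DRE cores and 0 ABRE cores, and the RD29B stretch holds 4 ABRE cores and 1 CRT/DRE core. COR15A and GOLS2 each have 1 core of either kind in the stretch shown. The stretches hold at most 300 bases and reach back at most 500 bases before the start codon. In those whole 500 bases RD29A had 4 CRT/DRE cores and 1 ABRE core, and COR15A had 2 and 3. The counts for RD29B and GOLS2 were the same there as in the stretches. The stretch of KIN2, which was lower in crwn1 crwn2 and is not shown, holds 1 ABRE core and 0 CRT/DRE cores. The build in the submitters' processing notes is TAIR10, the tables hold no coordinates, and genes were joined by locus identifier only.

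The first comparison set pwo1 against Col-0. In pwo1 RD29B and RAB18 were higher, and the galactinol synthase gene GOLS2 and the chloroplast LEA gene COR15B were lower. COR15A, KIN1, KIN2, COR47, RD29A and NCED3 were not listed. Thus 2 of the 10 members were listed as higher, against 1.88% of the 27562 protein-coding genes of the reference, and 2 as lower, against 2.5%. All 4 changed by at least 2-fold, a size reached by 0.646% of the protein-coding genes upward and 0.831% downward. The genes the authors tested are not known, so these shares are of annotated genes and are lower bounds on the shares of tested genes. Because the members were chosen with earlier results of these data known, the shares are no independent test of the set in either mutant. PWO1 is not in its own table, so the sign of every pwo1 value rests on the header, which names Col first in the same form as the header for crwn1 crwn2.

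RD29B, which encodes a hydrophilic protein induced by desiccation and abscisic acid, stood at 2.24 on the log2 scale in the authors' deposited table for pwo1 (edgeR p = 8.77e-04), a 4.71-fold rise. Under a normal approximation this p implies a standard error of 0.67 and a 95% interval of 0.92 to 3.55. The value is large but imprecise: its implied error was above that of 99.4% of the other genes of the table, where the median was 0.20. RAB18, a dehydrin gene long used as a reporter of abscisic acid, had 1.54 in the authors' deposited table (edgeR p = 0.00217), with an implied standard error of 0.50 and an interval of 0.56 to 2.53. Its error, too, lay in the upper tail, at the 97.7th percentile. Both tools gave nearly the same size, since Cuffdiff put RD29B at 2.27 and RAB18 at 1.55 in the authors' deposited table. RAB18 overlaps the gene AT5G66410 by 11 bases in TAIR10.1, and AT5G66410 was not listed.

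GOLS2, whose enzyme makes galactinol for raffinose synthesis, stood at -1.69 on the log2 scale in the authors' deposited table for pwo1 (edgeR p = 9.58e-06), with an implied standard error of 0.38 and an interval of -2.44 to -0.94. COR15B, a chloroplast protein that guards membranes against freezing, had -1.10 in the authors' deposited table (edgeR p = 0.00103), with an implied standard error of 0.34 and an interval of -1.76 to -0.44. Of the 4 values, that of GOLS2 had the smallest p, and ranked 359th by p of 1239 genes. The tables have no adjusted p. The edgeR p-values were therefore given the largest Benjamini-Hochberg value they could take, as if every one of the 38094 reference genes had been tested. The bound came to 0.001 for GOLS2, 0.038 for RD29B, 0.043 for COR15B and 0.076 for RAB18, so RAB18 is not shown to pass 0.05.

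The second comparison set crwn1 crwn2 against Col-0. In all, 6 members were listed and every one was lower: the cold-regulated genes COR15B, COR15A, KIN2 and RD29A, the galactinol synthase gene GOLS2 and the abscisic acid synthesis gene NCED3. KIN1, COR47, RD29B and RAB18 were not listed. The 6 lower members of 10 stand beside 2.99% of protein-coding genes listed as lower, and the 0 higher members beside 3.92% listed as higher. At 2-fold or more the same 6 were counted, beside 0.791% of protein-coding genes downward and 1.97% upward. The median log2 fold change of the 6 was -1.68 in the authors' deposited table, while that of all 1935 listed genes was 0.53. The mutated genes CRWN1 and CRWN2 stood at -3.03 and -2.42 on the log2 scale in the authors' deposited table, which fixes the sign.

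**Figure D1:**
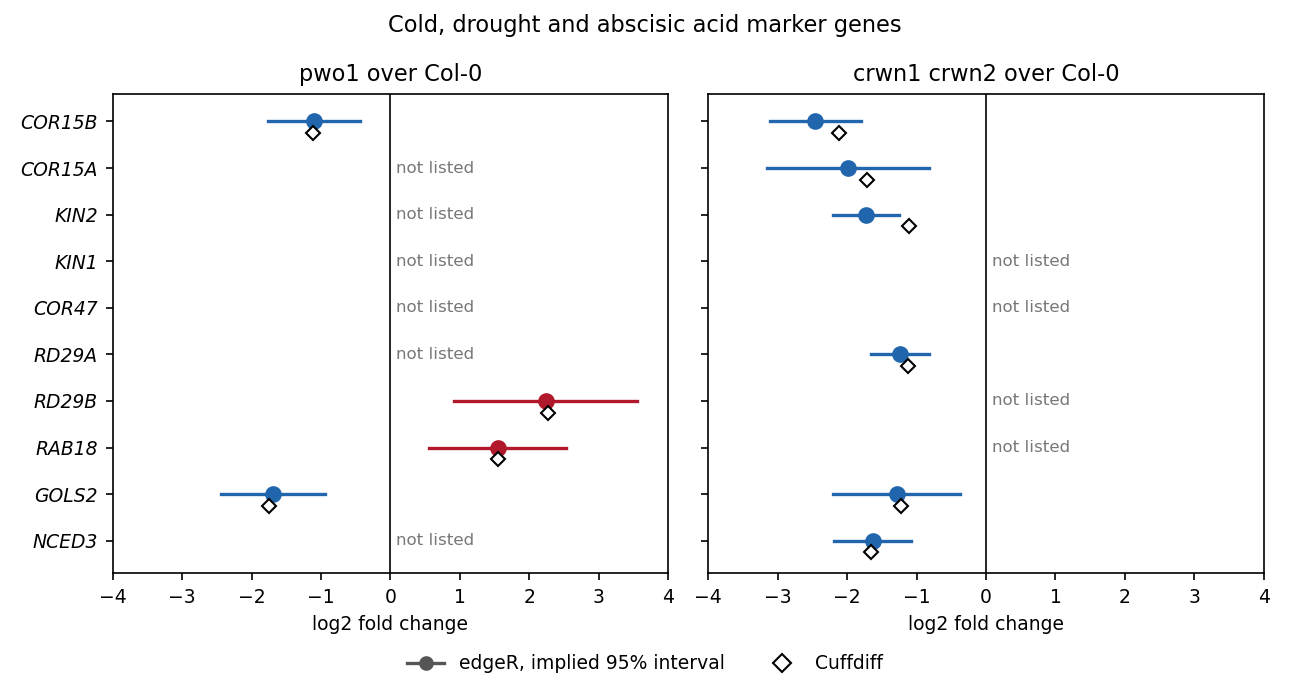
Log2 fold changes of the 10 marker genes in pwo1 (left) and crwn1 crwn2 (right) over Col-0, from the authors' deposited tables. Filled circles are edgeR values with the 95% interval implied by the p-value (red higher, blue lower), and open diamonds are Cuffdiff values. RD29B and RAB18 lie right of 0 in pwo1, and all 6 listed genes lie left of 0 in crwn1 crwn2.

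COR15B showed the largest fall of the 6, at -2.46 on the log2 scale in the authors' deposited table for crwn1 crwn2 (edgeR p = 2.02e-13). The implied standard error was 0.33 and the interval -3.12 to -1.80. Its neighbour COR15A, which encodes a related chloroplast LEA protein, had -1.99 in the authors' deposited table with a much larger implied standard error of 0.59 (edgeR p = 8.31e-04). The 2 genes lie in the same orientation with 7 bases between them in TAIR10.1, and their coding sequences are 74.9% identical. COR15B also overlaps AT2G42520 on the other strand by 468 bases, and AT2G42520 was not listed. No source used here says whether the counting took the strand into account.

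KIN2, which encodes a small hydrophilic cold-induced protein, had a log2 fold change of -1.73 by edgeR (p = 7.45e-13) and of -1.11 by Cuffdiff in the authors' deposited table for crwn1 crwn2. The gap of 0.62 between the tools exceeded that of 99.9% of the genes in that table, and the Cuffdiff value lay outside the interval of -2.20 to -1.26 implied for edgeR. KIN1 and KIN2 are identical at 191 of 201 aligned coding bases, with an identical run of 58 bases in their transcripts, and are 892 bases apart. How each tool treated reads that fit both genes is not given, so the value of KIN2 is uncertain and the absence of KIN1 from the table cannot be read as a difference between the pair.

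RD29A, which is induced by cold through CRT/DRE elements and by drought, stood at -1.24 on the log2 scale in the authors' deposited table for crwn1 crwn2 (edgeR p = 9.36e-09), with an implied standard error of 0.22. Its interval of -1.66 to -0.81 was the narrowest of the 6 members. NCED3, which catalyses the rate-limiting step of drought-induced abscisic acid synthesis, had -1.63 in the authors' deposited table (edgeR p = 5.93e-09), with an implied standard error of 0.28 and an interval of -2.18 to -1.08. GOLS2 stood at -1.29 on the log2 scale in the authors' deposited table with edgeR p = 0.00559, ranking 1920th of 1935, close to the largest p that was listed. Its interval was -2.20 to -0.38. The upper bound of the adjusted p by Benjamini-Hochberg was 0.11 for GOLS2, 0.024 for COR15A and at most 1.61e-06 for COR15B, KIN2, NCED3 and RD29A.

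**Figure D2:**
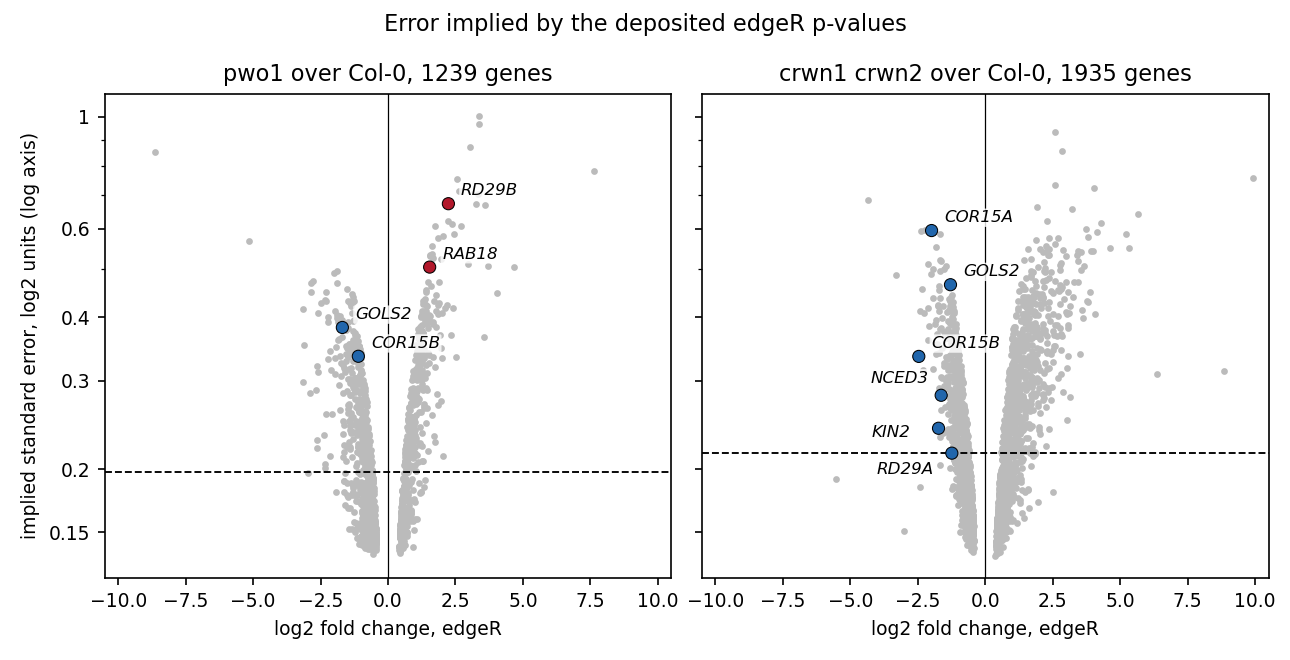
Standard error implied by each edgeR p-value (log axis, log2 units) against the edgeR log2 fold change for all genes of the deposited tables, 1239 for pwo1 (left) and 1935 for crwn1 crwn2 (right). Grey points are other listed genes, the dashed lines are the medians (0.20 and 0.22), and the empty wedge around 0 arises because only genes with small p-values are listed. RD29B and RAB18 in pwo1 and COR15A in crwn1 crwn2 have errors well above the medians, and RD29A sits on the median.

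The tools differed in the size of the fall of the cold-regulated members in crwn1 crwn2. The edgeR size exceeded Cuffdiff's by 0.35 for COR15B, 0.28 for COR15A and 0.11 for RD29A in the authors' deposited table for crwn1 crwn2, each above that of at least 91.0% of the genes in it. By contrast the gap was 0.07 for GOLS2 and -0.02 for NCED3 in the same deposited table. For pwo1 Cuffdiff gave the slightly larger size for all 4 listed members in the authors' deposited table. The direction of all 10 listed values was the same by both tools, and all 10 were at Cuffdiff's smallest p-value, 5e-05. This smallest value was common and does not set the members apart. With pwo1, 596 genes out of 1239 reached it, and with crwn1 crwn2, 1092 genes out of 1935 did.

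Both comparisons use the same Col-0 samples, so their values are set side by side. COR15B stood at -1.10 in pwo1 and -2.46 in crwn1 crwn2 on the log2 scale in the authors' deposited tables, a difference of 1.36 with an interval of 0.43 to 2.29. With the implied errors taken as independent, this passed a test of the difference (normal approximation, Benjamini-Hochberg over the 508 genes in both tables, adjusted p = 0.034), as did 61 of the 508 genes, or 12.01%. With the Cuffdiff fold changes and the same implied errors, a setting chosen after seeing the data, the difference for COR15B was 0.998 and did not pass (adjusted p = 0.22 by the same normal approximation). For GOLS2 the values were -1.69 in pwo1 and -1.29 in crwn1 crwn2 in the authors' deposited tables. Their difference of -0.40 had an interval of -1.58 to 0.77 and did not pass (adjusted p = 0.97 by the same normal approximation), which leaves room for differences of over 1 log2 unit. RD29B and RAB18 were listed for pwo1 alone and COR15A, KIN2, RD29A and NCED3 for crwn1 crwn2 alone. For these 6 genes the difference between the mutants could not be tested, because the second value is missing. Of the 8 members listed at all, 2 were listed for both mutants, beside 508 of all 2666 listed genes. Being listed for a single mutant was thus the common case and is not particular to the members.

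Neighbouring members did not share a table in each case. RD29B and RD29A lie 1185 bases apart on chromosome 5, and RD29B was listed only for pwo1 (2.24) and RD29A only for crwn1 crwn2 (-1.24) in the authors' deposited tables. COR47, an acidic dehydrin gene listed for neither mutant, lies 1029 bases from ERD10, a close dehydrin relative with 73.5% coding identity. ERD10 stood at -0.78 on the log2 scale in the authors' deposited table for crwn1 crwn2 (edgeR p = 0.00154). Within 5 loci of a member, 2 other genes were listed. NIK1, a receptor-like kinase gene 5 loci from KIN2, had -0.49 in pwo1 and -0.67 in crwn1 crwn2, and AT5G52280, near the RD29 pair, had -0.51 in crwn1 crwn2 in the authors' deposited tables.

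Other genes of the same pathways were counted over 5 lists with 80 genes in all. The lists, too, were chosen with earlier results of these data known. In pwo1, 9 were listed as higher and 5 as lower, beside 1.88% and 2.5% of protein-coding genes. In crwn1 crwn2, 7 were higher and 13 lower, beside 3.92% and 2.99%. These shares of protein-coding genes, 4.38% listed in all for pwo1 and 6.91% for crwn1 crwn2, are also those to set beside each single list. The largest list, of 25 cold, drought and LEA target genes, had 5 higher and 3 lower in pwo1 and 1 higher and 8 lower in crwn1 crwn2. Its median was 1.33 over the genes listed for pwo1 and -0.74 over those listed for crwn1 crwn2, while the medians of all listed genes were -0.53 and 0.53 in the authors' deposited tables.

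Among these targets, COR413IM1, an inner-envelope protein of the chloroplast that is induced by cold, had -1.23 in pwo1 and -2.30 in crwn1 crwn2 in the authors' deposited tables (edgeR p = 5.07e-05 and 2.57e-13). RCI2A, a small membrane protein gene, had -1.07, the plasma membrane gene COR413PM1 -0.80 and COR413IM2 -0.69 in the authors' deposited table for crwn1 crwn2. HIS1-3, a drought-induced linker histone gene, was lower in both mutants, at -1.59 in pwo1 and -0.74 in crwn1 crwn2 in the authors' deposited tables. COR27, a cold-regulated gene that is also an output of the circadian clock, was higher in pwo1 at 0.91 and lower in crwn1 crwn2 at -0.73 in the authors' deposited tables. The LEA gene LEA7 was higher in both, at 3.38 in pwo1 and 2.60 in crwn1 crwn2 in the authors' deposited tables. LEA4-5, LTP4 and LTP3, named after their values were seen, had 2.55, 3.38 and 1.76 in the authors' deposited table for pwo1. P5CS1, the proline synthesis gene that completes the 8 listed targets and was also named after its value was seen, had -0.65 in the authors' deposited table for pwo1. LEA4-5, LTP4, LTP3 and LEA7 had implied errors above those of at least 98.87% of the pwo1 table, from 0.61 in LTP3 upward. Their upper bounds of the adjusted p by Benjamini-Hochberg were 0.024 to 0.12.

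**Figure D3:**
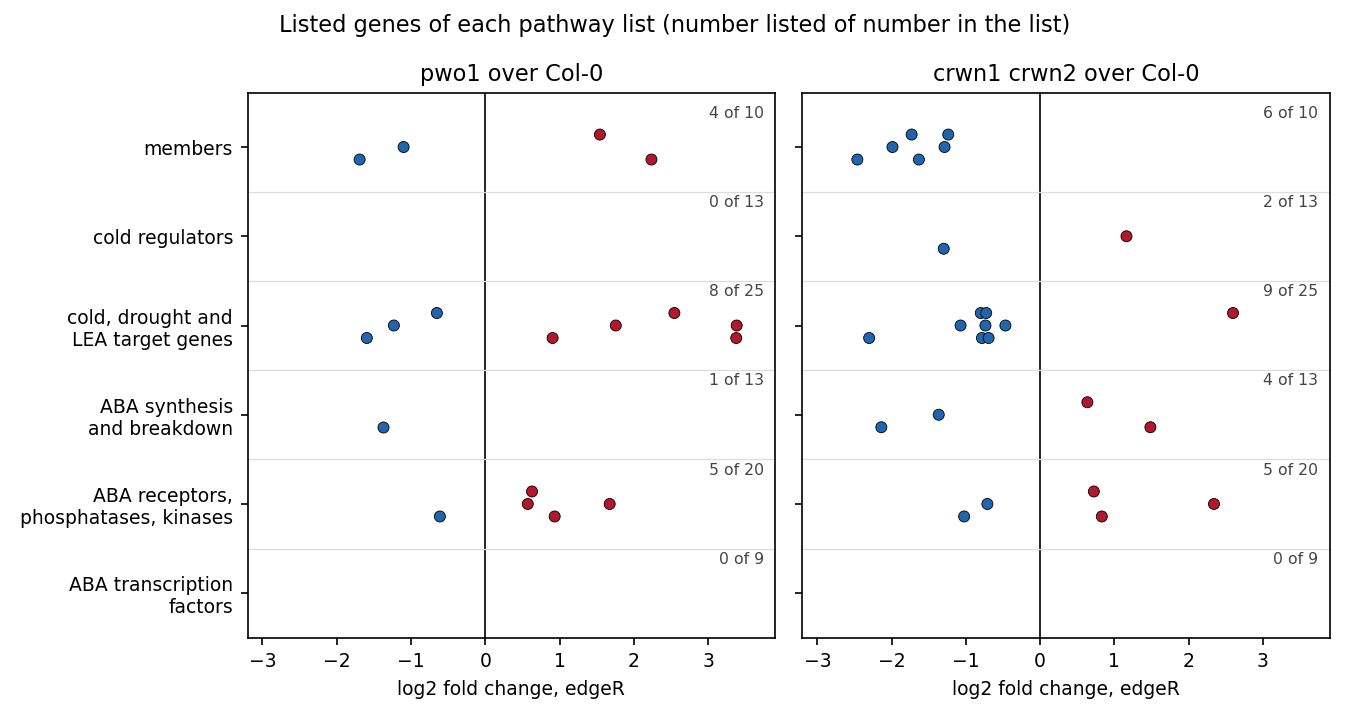
EdgeR log2 fold changes of the listed genes of each pathway list in pwo1 (left) and crwn1 crwn2 (right) over Col-0, from the authors' deposited tables. Each point is 1 gene (red higher, blue lower), shifted vertically only for legibility, and the numbers give listed genes of all genes in the list. In crwn1 crwn2 the members and 8 of the 9 listed target genes lie left of 0, and in pwo1 5 of the 8 listed target genes lie right of it.

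Of 13 cold regulators, 0 were listed for pwo1 and 2 for crwn1 crwn2. CBF3, 1 of the CBF factors that act on the CRT/DRE element, stood at -1.30 on the log2 scale in the authors' deposited table for crwn1 crwn2 (edgeR p = 0.0026, Cuffdiff p = 0.00615). ZAT12, a zinc finger gene of many stresses, had 1.16 in the authors' deposited table. None of 9 abscisic acid transcription factors, ABI3 to ABI5 and the ABF genes among them, was listed for either mutant. At the shares of 4.38% for pwo1 and 6.91% for crwn1 crwn2, lists this short could hold no listed gene. Nothing is therefore read from these zeros.

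In the list of 13 genes of abscisic acid synthesis and breakdown, NCED3 not counted, 1 was lower in pwo1, and 2 were higher and 2 lower in crwn1 crwn2. BGLU18, a glucosidase gene that releases abscisic acid from its glucose ester, had -1.38 in pwo1 and -1.36 in crwn1 crwn2 in the authors' deposited tables. The hydroxylases that break the hormone down went in different directions, CYP707A3 at -2.14 and CYP707A2 at 1.49 in the authors' deposited table for crwn1 crwn2. AAO3, the oxidase gene of the last step of synthesis, had 0.64 in the authors' deposited table for crwn1 crwn2.

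Of 20 receptor, phosphatase and kinase genes, 4 were higher and 1 lower in pwo1, beside 1.88% and 2.5% of protein-coding genes. In crwn1 crwn2, 3 of the 20 were higher and 2 lower, beside 3.92% and 2.99%. The receptor genes PYL4, PYL5 and PYL6 were higher in both mutants. PYL6 had 1.67 in pwo1 and 2.34 in crwn1 crwn2, PYL5 0.93 and 0.83, and PYL4 0.57 and 0.72, in the same order, in the authors' deposited tables. PYL9 had -0.61 in the authors' deposited table for pwo1. The phosphatase gene AHG3, also called PP2CA, had -1.02 and the kinase gene SNRK2.3 had -0.71 in the authors' deposited table for crwn1 crwn2. Among markers of other tissues, 0 of 11 seed maturation markers and 0 of 8 root markers were listed for either mutant. Lists this short would hold under 1 listed gene at the shares of 4.38% for pwo1 and 6.91% for crwn1 crwn2, so nothing is read from these zeros. Of 5 guard cell markers 1 was listed, the potassium channel gene KAT1, at -0.78 in pwo1 and -0.66 in crwn1 crwn2 in the authors' deposited tables. Its part in the values of the members was not tested.

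The genes whose pair of fold changes lay nearest to that of COR15B among the 508 genes in both tables were AT1G76610, COR413IM1 and AT1G33770, at distances of 0.16, 0.21 and 0.43 log2 units over the 2 comparisons. AT1G76610 had -1.21 in pwo1 and -2.34 in crwn1 crwn2, and AT1G33770 had -1.39 in pwo1 and -2.14 in crwn1 crwn2, in the authors' deposited tables.

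The motif cores in the 500 bases before the start codon were counted for all members, because annotated transcript starts lie from 83 bases (GOLS2) to 1209 bases (COR47) before it. All 10 members had the ABRE core and 9 had the CRT/DRE core, against 34.6% and 23.4% of 27406 genes in TAIR10.1. The members were chosen as markers of the responses that act through these elements, so their high share is no independent result. The window also takes in sequence after the annotated transcript start, where all cores of COR15B, COR47 and NCED3 lie. NCED3 was the member with no CRT/DRE core in this window. RD29A had the most CRT/DRE cores, 4 beside 1 ABRE core, and KIN2, RD29B and RAB18 had the most ABRE cores, 4 each beside 1 CRT/DRE core. Overlapping matches of a core on both strands were counted once, and no ABRE core of a member overlapped a CRT/DRE core. The 2 members higher in pwo1, RD29B and RAB18, were among those with 4 ABRE cores. KIN2, also with 4, was not listed for pwo1. Before the annotated transcript start KIN2 had 1 ABRE core and RD29B had 4. Of the 4 of RAB18, 1 lay after that start, at 227 to 223 bases before the start codon. A link between the cores and the fold changes was not tested. KIN2 was lower in crwn1 crwn2.

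**Figure D4:**
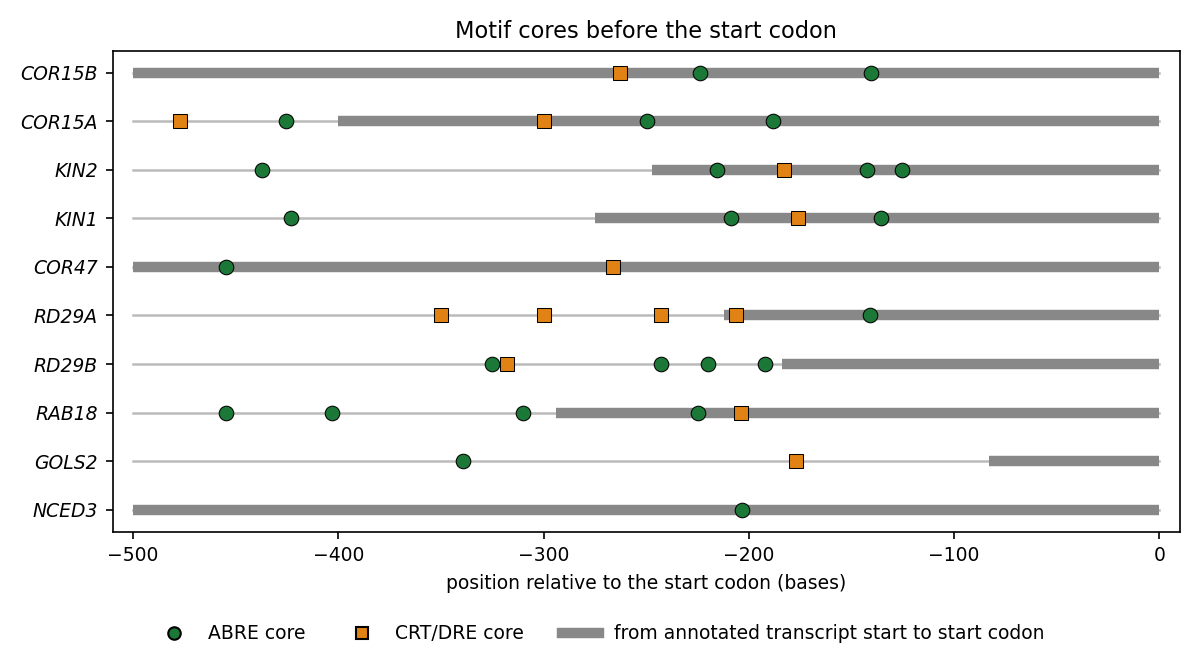
Positions of ABRE cores (green circles) and CRT/DRE cores (orange squares) in the 500 bases before the start codon of each member, on the gene's own strand. Thick grey bars run from the annotated transcript start to the start codon and include introns. RD29A shows 4 CRT/DRE cores, and RD29B, RAB18 and KIN2 show 4 ABRE cores each.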

How the data were processed

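RNA from whole seedlings of 3 genotypes was sequenced, with 1 GEO sample recorded per genotype. The submitters' processing notes list, with no role or order, build TAIR10 and the authors' tools edgeR 3.3, Cuffdiff 2.2.1, Cufflinks 2, HTSeq 0.6.1, TopHat2 2.0.12, FastQC 0.10 and Trimmomatic 0.35. No source used here states the normalization, filters, strand setting or rule for listing genes. Per the file headers, the deposited values are log2 fold changes and p-values by edgeR and Cuffdiff, made by the authors. No refit was possible, and depth is unknown.

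From these, standard errors were implied from the authors' edgeR p-values (normal approximation), differences between mutants were tested over genes in both tables, and p-values were bounded by Benjamini-Hochberg adjustment over all reference genes. These steps were tested on simulated data with independent errors, large differences and no selection on small p. The simulated difference test used the true standard errors. It therefore does not cover the shared Col-0 or the listing by small p. Python 3.11.15, scipy 1.17.1, pandas 2.3.3 and biopython 1.88 were used, with names, gene models and sequence from TAIR10.1. All 10 members matched a locus there. The members and lists were chosen with earlier results of these data known. Named genes were all members, up to 4 genes per list and table with the smallest p in the authors' edgeR column, listed genes within 5 loci, and the 3 nearest to COR15B. LEA4-5, LTP4, LTP3 and P5CS1 fall outside this rule.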

Additional observations from a re-analysis of the deposited data

Results flagged for a closer look

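A test of the difference between the mutants (normal approximation with implied errors, Benjamini-Hochberg over 508 genes) was passed by 61 of the 508 genes listed in both tables, or 12.01%. The 3 of them that are members or on the pathway lists are given here. For COR15B the difference of pwo1 minus crwn1 crwn2 was 1.36 (adjusted p = 0.034), both mutants being lower than Col-0. It did not pass with the Cuffdiff fold changes and the same implied errors (adjusted p = 0.22, normal approximation). COR27 differed by 1.63 (adjusted p = 2.34e-06), being higher in pwo1 and lower in crwn1 crwn2. HIS1-3 differed by -0.86 (adjusted p = 0.016), the fall being larger in pwo1. The sign for pwo1 rests on the header of its table.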

How the results depend on the processing

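All 10 listed member values had the same direction by Cuffdiff, and all 10 were at least 2-fold by either tool. Every listed gene had a small p by both tools, at most 0.00585 by edgeR and 0.0074 by Cuffdiff. Agreement in direction was therefore close to fixed by the listing and is no independent support. The other alternatives are filters on the same values and cannot change a direction. With p under 0.001 in both tools, 1 member was higher and 1 lower in pwo1, COR15B and RAB18 being lost, and GOLS2 was lost in crwn1 crwn2. By the upper bound of the adjusted p, 1 member was higher in pwo1, with RAB18 lost, and GOLS2 was lost in crwn1 crwn2. Over the 80 pathway genes in pwo1, 5 were higher and 3 lower at 2-fold by edgeR, beside 0.646% and 0.831% of protein-coding genes. The same counts, 5 and 3, held at 2-fold by Cuffdiff. With p under 0.001 in both tools 3 were lower in pwo1. In crwn1 crwn2, 4 were higher and 6 lower at 2-fold by edgeR, beside 1.97% and 0.791% of protein-coding genes. At 2-fold by Cuffdiff 4 were higher and 4 lower, so the lower genes no longer outnumbered the higher. These rules admit fewer genes by construction. With an error correlation of 0.5 for the shared Col-0, the difference for COR15B had an adjusted p of 4.10e-04 and that for GOLS2 of 0.66. Both members were at Cuffdiff's smallest p-value, so no error could be implied from Cuffdiff. With Cuffdiff fold changes and the errors implied for edgeR, chosen after seeing the data, the adjusted p was 0.22 for COR15B, whose difference shrank to 0.998, and 0.89 for GOLS2. Longer motifs were held by 10 members (ABRE) and 9 (CRT/DRE), against 24.3% and 12.9% of genes. With members chosen as markers of these responses, the excess is no independent result. A window of 1000 bases, chosen after seeing the data, cannot lower the members' counts of 10 and 9, and raised the shares of genes to 54.1% and 39.5%. No paired analysis was possible because the tables hold no replicates, and none could be left out for the same reason. Listed genes are those with small p-values, so their fold changes may be overstated, and depth sets a limit that cannot be read from the tables.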

Other observations

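A gap between the tools was also seen in other cold-regulated genes that were lower in crwn1 crwn2. In the authors' deposited table for crwn1 crwn2, the edgeR size exceeded the Cuffdiff size by 0.25 for COR413IM1, 0.22 for RCI2A and 0.16 for COR413PM1 and COR413IM2. Each gap was larger than that of at least 95.03% of the genes in the table. HIS1-3, ERD10, ERD4 and COR27 had smaller gaps, 0.03 to 0.08, and CBF3 had 0.02, in the authors' deposited table. Among lower genes of the abscisic acid lists the gap was 0.12 for BGLU18, above 92.24% of the genes in that deposited table. It was 0.08 for SNRK2.3, 0.06 for AHG3 and 0.02 for CYP707A3 in the authors' deposited table. The gap was thus not particular to cold-regulated genes. The median gap over the readable genes of that table was 0.02, and edgeR gave the larger size for 64.4% of them. CRWN2 had the largest gap, 0.85. The cause was not tested.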
